A study of Oryctolagus cuniculus with 24 samples.

Results

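The serum-free arm of a study of primary rabbit corneal keratocytes, the flattened resident cells of the corneal stroma, is described here by transcript abundance. It holds 8 libraries of 24 in the series, chosen by the treatment given in their labels and by no measured value. In the deposited table of FPKM (counts per unit of gene length and of scaled library size) they are the columns numbered 5 to 12 of the serum-free condition. First-passage cells were plated on glass coated with collagen and kept for 6 days in a defined serum-free medium, renewed on day 1 and day 3. The reference arms have 8 libraries each. In the TGF-β1 arm, called myofibroblast in the labels, the serum-free medium carried 5 ng/mL TGF-β1 from day 1. In the FBS arm, called fibroblast in the labels, the cells had serum-free medium until day 3 and then DMEM with 10% fetal bovine serum, so base medium and days of exposure differ as well as serum. Cells of all arms are labelled keratocyte and shared the serum-free plating step. The labels name no strain, age or number of animals. They do not say whether replicates are separate animals, cultures or repeat preparations, so p-values cover the spread among these samples alone, and that spread may be technical.

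Keratocytes build and maintain the transparent stroma. They secrete thin fibrils of type I and type V collagen, and small leucine-rich proteoglycans that carry keratan or dermatan sulfate chains and keep the fibrils evenly spaced. Their cytoplasm is rich in a few soluble enzymes, called corneal crystallins, that are thought to reduce light scatter, and in the healthy cornea they rarely divide. Culture without serum is widely used to hold them in that state.

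Total counts ran from 17151397 to 21540864 per serum-free library, and 153097578 over the 8. The authors' scaled library size was 0.920 to 1.03 times the total count in these libraries. The libraries did not behave as 8 equal repeats. Numbers 5 to 8 (replicates 1 to 4) stood apart from numbers 9 to 12 (replicates 5 to 8). Correlations of log2 CPM were 0.976 to 0.987 within these sets and 0.948 to 0.972 between them. CPM are counts scaled to a library size adjusted by TMM, edgeR's normalization, over the genes that passed its filter. As a check for a library deposited more than once, the squared difference over its counting variance was averaged over genes, and it was 6.84 to 28.7 within a set and 38.1 to 117 between sets, so each library was counted once. What separates the sets is not in the labels. Where a gene averaged at least 1 FPKM and the means of the sets differed by over 1.5 times, both means are given below, libraries 5 to 8 first.

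The label was checked against its markers, KERA, LUM, ALDH1A1 and CD34. KERA, which encodes the keratan sulfate proteoglycan keratocan, ran from 3759 to 5506 (median 4041) FPKM. LUM, for the related proteoglycan lumican, ran from 6324 to 8433 (median 6749) FPKM. ALDH1A1, a retinal dehydrogenase and corneal crystallin, ran from 559 to 815 (median 690.0) FPKM, and CD34, a surface sialomucin of stromal cells, from 85.6 to 99.8 (median 89.8) FPKM. All 4 were therefore present in all 8 libraries, at ranks 8, 10, 60 and 580 of 23428 genes for LUM, KERA, ALDH1A1 and CD34. The reference arms had 147 ± 22.4 and 119 ± 56.4 FPKM of KERA and 2.32 ± 0.279 and 4.93 ± 0.5696 FPKM of CD34 with TGF-β1 and FBS (mean ± SD, n = 8 here and below). In bulk RNA, fewer cells of a kind and less RNA per cell cannot be told apart. Of 13 keratocyte markers in the table, 11 averaged at least 10 FPKM. ITGA6, an integrin subunit, was at 0.557 ± 0.191 FPKM and NGFR, a neurotrophin receptor, at 1.94 and 3.62 in the sets. PTGDS, CHST5 and ALDH3A1 are among the genes not analysed here.

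The transcriptome was steep. Of 23428 genes, 11174 averaged at least 1 FPKM, 5717 at least 10, 531 at least 100 and only 36 at least 1000, while 4781 had no count in any serum-free library. The 10 most abundant genes held 20.9% ± 2.05 of the summed FPKM (18.3% to 23.9%) and the 100 most abundant 41.7% ± 1.46. Libraries 5 to 8 had the 4 highest shares of the top 10. Each reference arm's own 10 most abundant genes held 14.7% ± 0.578 with TGF-β1 and 8.68% ± 0.982 with FBS. Both ranges lay below the serum-free one. Ranked within each set alone, 9 of the 10 and 87 of the 100 most abundant genes were the same.

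Matrix genes led the list. COL1A1 and COL1A2, the chains of type I collagen, came first at 13299 ± 2285 and 13094 ± 2629 FPKM. They were followed by DCN (decorin, 11728 ± 1899), OGN (osteoglycin, 12746 and 7804 in the sets) and SPARC (a collagen-binding glycoprotein, 8605 ± 849). COX1, a respiratory chain subunit encoded in mitochondrial DNA, was sixth at 7731 ± 1227 FPKM. Next came SAA3 (serum amyloid A, an acute-phase protein, 7539 ± 1504), LUM (7178 ± 926), the ferritin heavy chain gene FTH1 (6616 ± 1272) and KERA (4423 ± 706). The first places could not be ordered beyond the spread of the libraries: COL1A1 ran from 10001 to 15825 (median 13622) and COL1A2 from 10017 to 15919.9 (median 13616) FPKM, so their ranges overlapped almost wholly. The next ranks held the ferritin light chain gene FTL (2232 FPKM in libraries 5 to 8 and 4928 in 9 to 12), the elongation factor EEF1A1 (3326 ± 557), the secreted serine protease HTRA1 (2988 ± 336), LOC103344972, which the table describes as the calcium-binding protein S100A4 (2980.4 ± 431) and S100A10, a partner of annexin A2 (2457 ± 472). FTH1, EEF1A1 and the ribosomal protein genes have near-identical copies in mammalian genomes, so how their reads were shared out is uncertain.

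**Figure D1:**
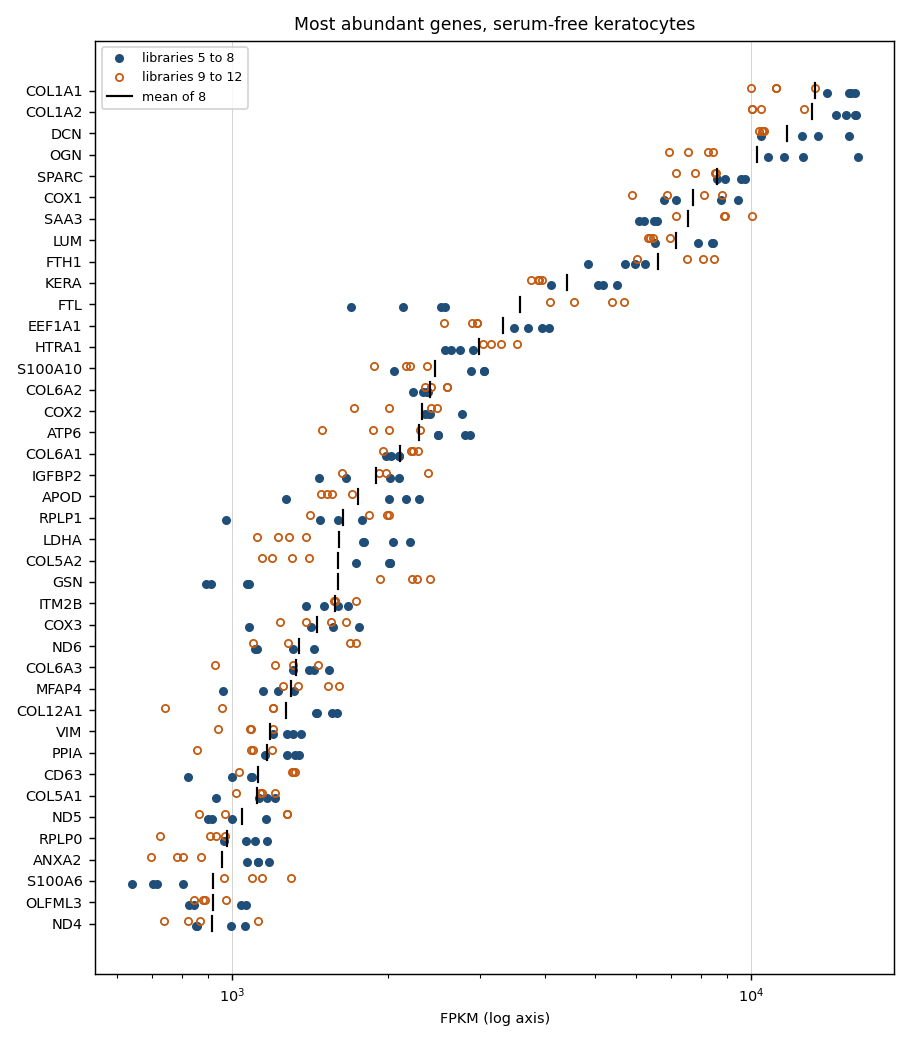
FPKM (log axis) of the 40 most abundant genes with a symbol in serum-free medium, ordered by mean. Filled circles are libraries 5 to 8, open circles libraries 9 to 12 and bars the mean of all 8. Type I collagen and decorin lead, and the sets part most widely for FTL and GSN.

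Small leucine-rich proteoglycans, the spacers of the fibrils, held 8.04% ± 1.47 of the summed FPKM. Of 16 members 13 averaged at least 10 FPKM and 9 at least 100. The most abundant lay in a pair of gene clusters of the deposited table, with coordinates as deposited (the labels name no build). On chromosome 4, EPYC (70179597 to 70215499), KERA (70262575 to 70269568), LUM (70315437 to 70323221) and DCN (70357836 to 70397995) follow each other on the minus strand. LOC108176669, which has no description (70265303 to 70269539) lies inside the span of KERA on the plus strand and had 41.7 and 22.8 FPKM in the sets. The labels name no strand setting, so its reads and those of KERA cannot be told apart there. On chromosome 1, OGN (70251553 to 70270135), OMD (70281224 to 70291839), ASPN (70308159 to 70332292) and ECM2 (70346738 to 70387748) are neighbours, also on the minus strand. Within the first cluster DCN was 11728 ± 1899 FPKM, LUM 7178 ± 926, KERA 4423 ± 706 and EPYC, which encodes epiphycan, 46.7 ± 6.496. In the second, OGN was as high as given above, but ASPN (asporin) was 131 ± 25.2, ECM2 103 ± 13.4 and OMD (osteomodulin) 90.6 ± 16.5. Levels within each cluster thus spanned a wide range. Outside the clusters PRELP (prolargin, 232 and 560.3 FPKM in the sets), FMOD (fibromodulin, 211 ± 39.6) and BGN (biglycan, 70.1 and 251) followed. OPTC, the opticin of the vitreous, averaged 0.0607 FPKM, and NYX, the nyctalopin of the retina, had no count.

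Collagens held a further 8.81% ± 1.302 of the summed FPKM, and 16 of 43 genes averaged at least 10 FPKM. The microfibril chains COL6A2 (2409 ± 127 FPKM) and COL6A1 (2110.0 ± 123) came next after type I, and COL6A3 was 1325 ± 192. COL5A2 (1944 and 1260.4 in the sets) and COL5A1 (1117 ± 96.2) encode the type V chains that limit fibril diameter. LOC100340124, which the table also describes as COL5A1, had 661 ± 137 FPKM, so the level of COL5A1 may be split between both entries. The fibril-associated COL12A1 (1268 ± 303), COL16A1 (555 ± 50.2) and COL14A1 (569 and 332 in libraries 5 to 8 and 9 to 12) were abundant too. COL3A1, the collagen of loose and healing tissue, was only 3.23 ± 0.856 FPKM, from 2.34 to 5.02 (median 3.03). The basement membrane genes COL4A3 (188 ± 40.5) and COL4A4 (206 and 115 in the sets) were high, while COL4A1 (1.77 ± 0.426) and COL4A2 (1.07 ± 0.367), which elsewhere form the common network, were near 1 FPKM. COL4A3 and COL4A4 lie on opposite strands of chromosome 7 (169022061 to 169097443 and 168760952 to 168944185), with LOC108176893, of no description, at 0.224 FPKM between them. COL17A1, the collagen of epithelial hemidesmosomes, had 10 counts over the 8 libraries and COL9A1, a cartilage chain, had 0.

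Other matrix glycoproteins were led by SPARC, the microfibril protein MFAP4 (1297 ± 204 FPKM), the thrombospondin THBS4 (865 ± 73.5), fibronectin (FN1, 663 ± 130.4), dermatopontin (DPT, 643 ± 64.3) and fibulin 5 (FBLN5, 558 ± 81.2). Of 58 listed genes 31 averaged at least 10 FPKM and 13 under 1. THBS1, another thrombospondin, was 285 ± 41.8 FPKM and MGP, a calcification inhibitor, 65.2 ± 11.7. Among the lower members TNC (tenascin C) was 3.38 ± 1.34 FPKM, POSTN (periostin) 7.601 and 3.11 in the sets, VCAN (versican) 0.2901 ± 0.0593, ACAN (aggrecan) 0.232 ± 0.138, ELN (elastin) 0.789 ± 0.537 and LTBP2, a microfibril protein, 0.429 ± 0.1399. NCAN and TNR, matrix genes of brain, had 3 and 5 counts in all.

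The enzymes that finish collagen and keratan sulfate were present, with gaps. Of 26 collagen processing genes 19 averaged at least 10 FPKM. The lysyl oxidase LOX was 489 ± 68.5 FPKM, the lysyl hydroxylase PLOD1 458 ± 39.6, the procollagen proteinase enhancer PCOLCE 446 ± 63.3 and the collagen chaperone SERPINH1 398 ± 60.6. The paralogue PLOD2, which hydroxylates lysines of the collagen telopeptides, was only 1.795 ± 0.428 FPKM, the prolyl hydroxylase subunit P4HA3 0.6498 ± 0.321 and the transglutaminase TGM2 0.938 ± 0.317. Of 12 genes of keratan sulfate chains 8 reached 10 FPKM. CHST6, the corneal sulfotransferase, was 76.3 and 141 FPKM in libraries 5 to 8 and 9 to 12, and it was found by gene number. B3GNT7, which adds N-acetylglucosamine to the chain, was 68.3 ± 13.7, and the galactosyltransferases B4GALT1 and B4GALT4 were 69.7 ± 3.51 and 29.4 ± 2.57. CHST4, a sulfotransferase of lymph node vessels, had 3 counts.

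MMP2, a gelatinase, was 593 and 1089 FPKM in libraries 5 to 8 and 9 to 12, and the inhibitors CST3 (cystatin C), TIMP1 and TIMP2 were 795 ± 115, 354 ± 49.1 and 235 ± 36.4. The lysosomal proteases CTSD (343 and 935) and CTSB (264 and 531) were higher in libraries 9 to 12 without overlap. MMP1 (collagenase) ran from 0 to 1.49 (median 0.261) FPKM, MMP9 (the other gelatinase) was 0.345 ± 0.188, the urokinase gene PLAU 0.383 ± 0.182 and its receptor gene PLAUR 0.372 ± 0.357. MMP10 and MMP13 had no count.

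Among 29 genes listed as corneal or lens crystallins, not all of them enzymes, 14 averaged at least 10 FPKM. The lactate dehydrogenase LDHA was 1956 and 1255 FPKM in the sets. The prolyl isomerase PPIA, which has near-identical copies, ran from 857 to 1347 (median 1174) FPKM, transketolase (TKT) from 667 to 864 (median 762) and α-enolase (ENO1) from 605 to 896 (median 691). Glutathione S-transferase P (GSTP1) was 596 and 932 FPKM. In mean level ALDH1A1 (686 ± 105) lay beside TKT (766 ± 61.2) and ENO1 (717 ± 101), with overlapping ranges. CRYAB, the small heat shock crystallin that many tissues make, was 142 ± 18.6 FPKM. Of the listed β and γ crystallins of the lens CRYBA4 had the highest mean, with 0.884 and 1.66 FPKM in the sets (158 counts). CRYGS averaged 0.493 FPKM (51 counts) and CRYBA1 0.153, while CRYBB1, CRYBB2, CRYBA2 and CRYGC had no count. CRYAA had 1 count over the 8 libraries. CRYL1, CRYZ and CRYM, also listed, had higher means than CRYBA4, with 2846, 2487 and 978 counts.

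Retinoid genes beyond ALDH1A1 were modest. The cellular retinoic acid binding protein gene CRABP2 was 72.6 and 110.0 FPKM in libraries 5 to 8 and 9 to 12, and CRABP1 was 130.4 and 50.5. The receptor gene RARG was 22. and 34.6 FPKM in the sets and RARB 2.06 ± 0.601. The retinoic acid degrading genes CYP26A1 and CYP26B1 had 0 and 111 counts, and LRAT, which stores retinol as esters, had 4.

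Glycolysis was broadly present, with 20 of 31 genes at 10 FPKM or more. ENO1 was 717 ± 101 FPKM, GAPDH 303 ± 58.6, ALDOA (aldolase A) 261 ± 26.2 and PKM (pyruvate kinase) 247 ± 30.5. The phosphofructokinase genes PFKL and PFKM were 42.95 ± 6.03 and 28.4 ± 1.99 FPKM. PKLR, liver pyruvate kinase, was 0.2796 ± 0.136 FPKM and SLC2A4, the insulin-regulated glucose transporter, had 1 count. The gluconeogenic genes FBP1 and FBP2 (fructose bisphosphatases) were present at 17.4 ± 1.69 and 17.5 ± 3.48 FPKM. In the pentose phosphate pathway TKT stood far above PGD (64.9 ± 8.37), RPE (10.8 ± 1.41) and RPIA (5.09 ± 0.623). The 13 genes of mitochondrial DNA held 4.86% ± 0.596 of the summed FPKM, from ATP8 (91.9 and 167 in the sets) to COX1. ND6 (1347 ± 254) is encoded on the other strand of the mitochondrial genome than ND5. Without a stated strand setting its reads cannot be told apart from those of RNA of the opposite strand.

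The ferritin genes led the antioxidant list. FTH1 was 6616 ± 1272 FPKM, PRDX1 (peroxiredoxin) 787 ± 67.1 and the extracellular superoxide dismutase SOD3 335 ± 36.8. HMOX1 (heme oxygenase, 109.9 and 235 FPKM), NQO1 (a quinone reductase, 84.01 and 202) and SRXN1 (sulfiredoxin, 8.51 and 37.7) differed between libraries 5 to 8 and 9 to 12. LOC100328613, which the table describes as the cytochrome P450 CYP1A1, a known target of the aryl hydrocarbon receptor, was 387 and 606 FPKM (rank 86 on the mean of all 8). Among lipid genes APOD (apolipoprotein D) was 1751 ± 363 FPKM and APOE 253 and 904 in the sets. LPL (lipoprotein lipase) was 0.4298 ± 0.158 FPKM, and FABP4, the fatty acid binding protein of fat cells, had no count.

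Receptors of FGF, GAS6 and PDGF led the growth factor receptors. Of 39 growth factor receptors 18 averaged at least 10 FPKM. FGFR1 led at 225 ± 19.6 FPKM, from 197 to 256 (median 219), followed by AXL, a receptor of GAS6 (201 ± 13.5), PDGFRA (76.5 ± 4.49), TGFBR2 (70.6 ± 6.45) and ENG, endoglin (65.96 ± 9.42). KDR, a VEGF receptor best known from blood vessels, was 64.9 ± 7.78 FPKM, from 49.2 to 76.04 (median 65.99), while FLT1 and FLT4, the other VEGF receptors, had 14 and 24 counts over the 8 libraries. MET, the HGF receptor, was 0.467 ± 0.194 FPKM, from 0.177 to 0.768 (median 0.452), and ERBB4 had 3 counts. Ligands of FGFR1 and its relatives included FGF10 at 54.5 ± 3.59 and FGF2 at 16.3 ± 2.99 FPKM, while FGF7 was 0.0367 ± 0.0553.

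Of 30 cytokine receptors 13 averaged at least 10 FPKM. IL11RA led at 101 ± 10.8 FPKM, ahead of TNFRSF1A, a TNF receptor (35.1 and 55.4 in libraries 5 to 8 and 9 to 12). IL1RL1, the IL-33 receptor, was 40.2 and 22.9 FPKM, and IL18R1, the IL-18 receptor, 29.7 and 8.99, while the IL-1 receptor gene IL1R1 was 1.48 and 2.83 and the decoy gene IL1R2 had no count. LIFR, which pairs with IL6ST (33.3 ± 5.41), was 0.276 ± 0.105 FPKM, and CXCR4 and LEPR had 16 and 56 counts. Of 55 listed G protein-coupled receptors and accessory proteins of them (RAMP1 and RAMP2) 10 reached 10 FPKM and none reached 100. They were led by FZD1 (a Wnt receptor, 57.4 ± 9.07), S1PR3 (sphingosine phosphate, 69.02 and 44.2 in the sets), F2R (thrombin, 46.4 ± 11.6), LPAR1 (lysophosphatidic acid, 36.4 ± 5.18) and PTH1R (parathyroid hormone, 25.6 and 39.9). AGTR2, LPAR3 and ADORA1 had 1, 2 and 4 counts.

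Receptors of matrix were led by SDC2 (syndecan 2, 348 ± 60.3 FPKM), ITGB1 (the common β1 integrin chain, 233 ± 23.8) and ITGB5 (130.4 and 213 in the sets). The collagen-binding ITGA11 (87.9 ± 7.02) was the most abundant α chain listed, ahead of ITGA3 (28.8 ± 3.26). Their ranges did not overlap. ITGA5, the fibronectin receptor chain, was 11.9 ± 2.35 FPKM, ITGB3 0.113 ± 0.0497, the hyaluronan receptor CD44 6.28 ± 1.08 and ITGB6 had no count. Of secreted factors, DKK2 (a Wnt antagonist, 227 ± 51.5 FPKM), SLIT3 (an axon guidance ligand, 185 ± 20.8) and CHRD (chordin, which binds BMPs, 166 ± 24.6) led, and WNT5A was 129 ± 20.4. CYR61, a matricellular protein whose mean over all 8 lay above that of WNT5A, averaged 219 FPKM in libraries 5 to 8 and 68.9 in 9 to 12. AREG, an EGF receptor ligand, and DKK1 had no count. Among the IGF binding protein genes listed (IGFBP3 is not analysed here), IGFBP2 was the most abundant at 1892 ± 294 FPKM against 251 ± 36.9 for IGFBP4, and IGF1 was 3.75 and 0.905 in the sets.

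Complement genes were led by regulators. CLU (clusterin, which blocks the terminal complex) was 289.9 and 1035 FPKM in libraries 5 to 8 and 9 to 12. The inhibitor SERPING1 (163 ± 14.04) and the protease CFB (99.6 ± 16.5) were both above C3, the central component (20.5 ± 4.05), with no overlap of ranges. The water channel AQP1 was 331 and 526 FPKM in the sets, the gap junction gene GJA1 309.6 ± 40.5 and the bicarbonate transporter SLC4A4 73.7 and 37.7. AQP5, the water channel of corneal epithelium, had no count and AQP3 had 2.

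Transcription factors were counted as genes with a symbol whose deposited entry names a DNA-binding family. Factors of the neural crest and periocular list and of the AP-1, EGR and KLF list were added. Of these 477, 97 averaged at least 10 FPKM and 5 at least 100, and together they held 0.849% ± 0.0395 of the summed FPKM. Factors with neither such an entry nor a place on these lists were left out, among them ERG (given below). Share and order therefore hold for this set only. PRRX1 had no such entry and came in by its list. XBP1, a factor of secretory cells, led at 215 ± 50.98 FPKM. POU3F3 followed (126 and 204 in libraries 5 to 8 and 9 to 12), then TBX2 (117 ± 17.3), ATF4 (85.3 and 136) and TCF4 (104 ± 16.9). Homeobox genes included PRRX1 (80.8 ± 14.2), EMX2 (75.2 ± 3.91) and SHOX2 (59.5 ± 2.95). EMX2 and SHOX2 varied little, running from 68.2 to 80.2 (median 75.6) and 55.8 to 64.3 (median 59.2) FPKM. NR1D1 and TEF, a nuclear receptor and a bZIP factor of the circadian clock, were 53.1 ± 6.302 and 52.6 ± 3.19 FPKM.

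**Figure D2:**
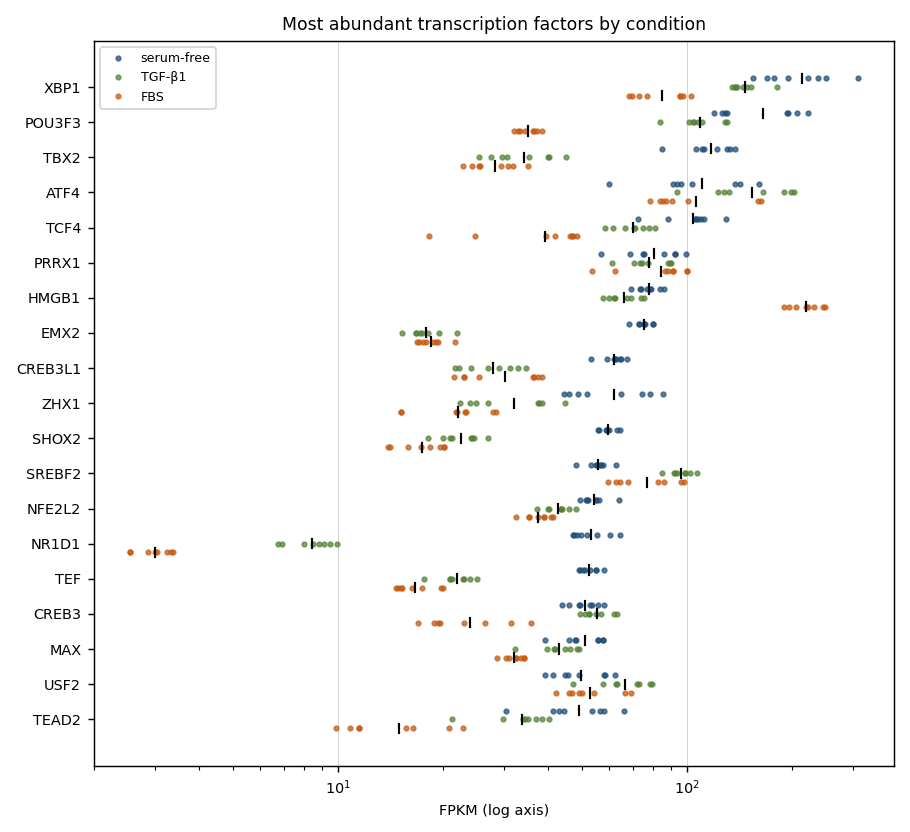
FPKM (log axis) of 19 of the 20 most abundant transcription factors, among those counted, of serum-free libraries, with the same genes in the reference arms. Small points are libraries (8 per condition) and bars are condition means. NR1D1 averaged 53.1 FPKM without either agent, 8.43 under TGF-β1 and 2.99 under FBS.

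Keratocytes descend from the neural crest, and the listed factors of neural crest and of the tissue around the eye ranged widely. Of 47 listed, 11 averaged at least 10 FPKM and 22 under 0.1, where 24.4% and 37.1% of all genes did so. TFAP2B was 34.5 ± 5.17 FPKM, LMX1B 23.7 ± 5.77 and FOXC1 21.2 ± 1.77. PAX6, which marks corneal epithelium, had 3 counts, PAX3 22, and SIX3, SIX6, DLX2 and TCF21 had none. All 36 HOX genes in the table, which pattern the trunk and limbs, averaged under 0.1 FPKM, with 21 counts over all of them. FOXC2, FOXD1 and TWIST1 are among the genes not analysed here. Of immediate early factors EGR1 was the least steady: it was 82.9, 119.9 and 48.98 FPKM in replicates 2, 3 and 4 and 11.5 to 12.4 in the other 5. JUN (44.8 ± 8.32) varied less.

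Division genes were low and arrest genes were present. Of 30 division genes, which include replication genes such as PCNA (23.2 ± 2.501 FPKM), 1 reached 10 FPKM. MKI67, a nuclear protein of cycling cells, ran from 0.0289 to 1.91 (median 0.508) FPKM and averaged 1.32 in libraries 5 to 8 and 0.0976 in 9 to 12, against 44.4 ± 16.1 FPKM in the FBS arm. CCNB1, a mitotic cyclin, was 2.98 and 0.505 FPKM in the sets. Of 27 genes tied to arrest or to FOXO, 16 averaged at least 10 FPKM. TSC22D3, a glucocorticoid-induced protein, was 145 ± 31.3 FPKM, GAS1, named for growth arrest, 143 ± 16.9 and the kinase inhibitor CDKN1B 26.1 ± 3.37. CDKN1A, another inhibitor, was 36.1 and 91.3 FPKM in the sets and CDKN2B 0.229 ± 0.171. Of 24 listed myofibroblast and smooth muscle genes, some of them made by most cells, 11 averaged at least 10 FPKM and 6 at least 100. CNN3, a calponin, was 178 and 106 FPKM in the sets, the tropomyosin gene TPM1 126 ± 11.3 and the caldesmon gene CALD1 89.2 ± 10.3. ACTA2, smooth muscle actin, was 3.34 and 1.08 FPKM in the sets and TAGLN (transgelin) 4.05 and 1.85, against 1182 ± 139 for VIM (vimentin) and 793 ± 163 for ACTB.

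What was absent can be read from counts, since 153097578 counts stand behind the 8 libraries and 0 counts allow up to 3 of that total (counting error only). Of 28 corneal epithelial markers 20 averaged under 0.1 FPKM and 6 had no count. KRT12, the corneal keratin, EPCAM and DSG1 were among the latter, while KRT3, whose product pairs with that of KRT12, had 28 counts and CDH1 (E-cadherin) 15. The summed level of the list was 4.28 to 20.9 FPKM, most of it CLDN1 (3.64 and 15.5 in libraries 5 to 8 and 9 to 12). Of 35 keratin genes 1 averaged at least 1 FPKM, KRT10 at 5.98 ± 1.52.

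Immune cell markers summed to 8.998 to 17.3 FPKM over 25 genes, and 3 averaged at least 1 FPKM, led by LCP1 (8.26 and 3.26 in the sets). PTPRC, which all leukocytes carry, had 21 counts over the 8 libraries, and CD3D, CD3E, CD3G and MS4A1, the defining genes of T and B cells, had none. Vascular markers were uneven. KDR (64.9 ± 7.78) and ERG (61.4 ± 7.04), an ETS factor, were well above 10 FPKM, and CDH5 (VE-cadherin) was 3.54 ± 0.5703, whereas PECAM1 had 10 counts, TEK 32, VWF 139 and PLVAP and SOX17 none. The summed vascular list was 112 to 149 FPKM. Of corneal endothelial markers COL8A2 (233 ± 26.4) is also made by other cells, while SLC4A11, a transporter of that layer, was 0.403 ± 0.177 FPKM and ZP4 had no count.

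The list of glial and pigment cell genes summed to 68.2 to 88.8 FPKM over 19 genes, led by PMP22 (35.2 ± 8.08), a myelin gene that fibroblasts also express, and NCAM1 (19.6 ± 3.28). SOX10, the factor of Schwann and pigment cells, was 1.16 and 1.77 FPKM in the sets (610 counts). DCT, a melanin enzyme, averaged 1.85 FPKM, while TYR and TYRP1 of the same pathway had no count. Of neuron and muscle markers 13 of 18 averaged under 0.1 FPKM, and MAP2, a microtubule protein (16.9 ± 1.79), was the 1 gene above 10. MYOD1, MYOG, MYF5 and SNAP25 had no count. Of skeletal genes TNMD, a tendon membrane protein, was 31.7 and 17.7 FPKM in the sets and MKX, a tendon factor, 12.8 ± 1.15. RUNX2, a bone factor, was 12.1 ± 0.976 FPKM, and IBSP and BGLAP of bone had no count. A part of minority cells in any of these levels was not tested. Outside these lists, 859 of 880 genes described as olfactory receptors averaged under 0.1 FPKM.

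**Figure D3:**
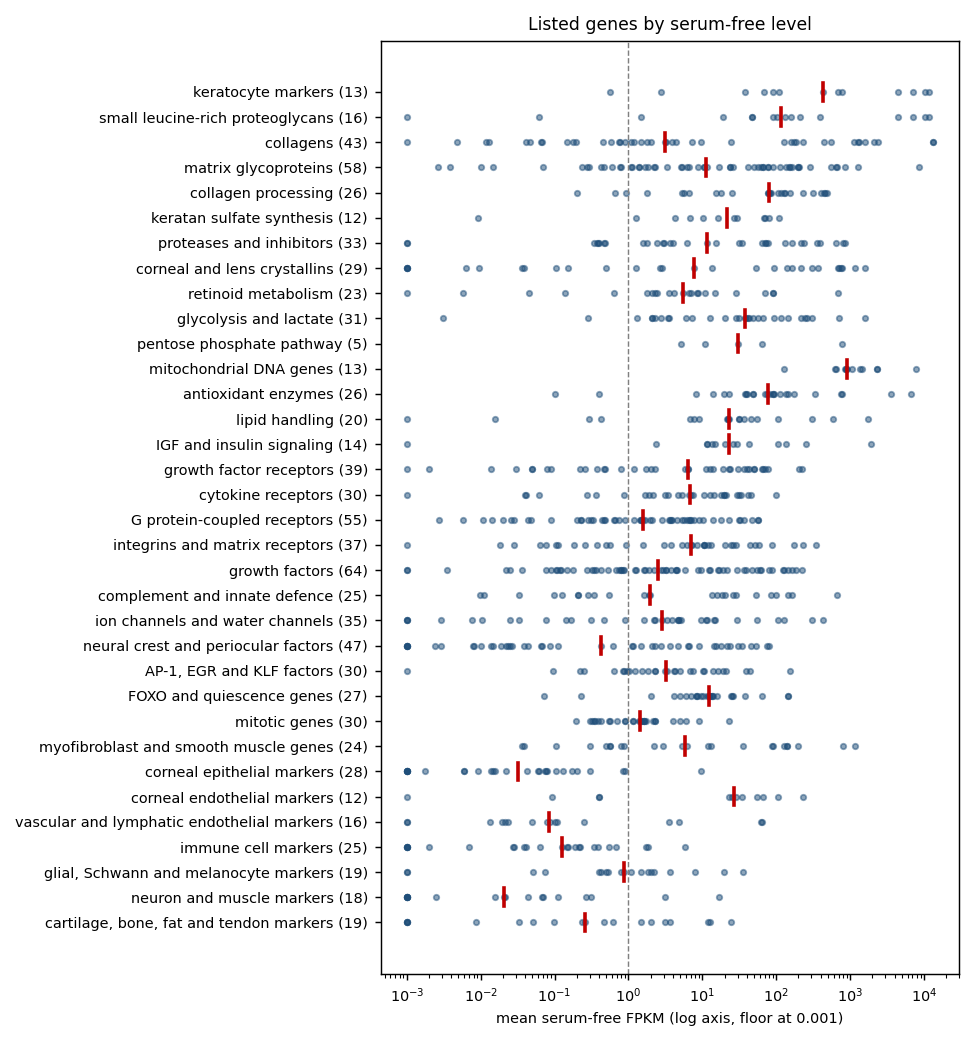
Mean serum-free FPKM (log axis, values under 0.001 drawn at 0.001) of every listed gene, 1 row per list with the number of genes in the table. Each point is a gene and the bar is the list's median, and the dashed line is 1 FPKM. The bars of mitochondrial DNA genes (914 FPKM) and keratocyte markers (429) lie furthest to the right. Those of neuron and muscle markers (0.0209) and epithelial markers (0.0321) lie furthest to the left. The bar of the collagens is at 3.17 FPKM.

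The spread among libraries was larger over all 8 than within either set. Over the 5717 genes at 10 FPKM or more the median coefficient of variation across libraries was 14.5%, against 8.79% within libraries 5 to 8 and 8.41% within 9 to 12. The lowest, among genes with a symbol, was that of CUL4A, a ubiquitin ligase scaffold (57.95 ± 1.06 FPKM), which was picked out after its values were seen. The most variable were EGR1, ANGPTL4, FABP3 and PDK4. ANGPTL4, a secreted inhibitor of lipoprotein lipase, was 15.9 to 27.99 FPKM in libraries 5 to 8 and 523 to 631 in 9 to 12. PDK4, which restrains pyruvate oxidation, was 4.29 to 7.79 and 66.5 to 78.4 FPKM in the same order. Their means over 8 libraries describe neither set. FABP3, a fatty acid carrier, went the other way at 35.2 to 70.3 and 3.05 to 6.23 FPKM. CEMIP, which degrades hyaluronan, was 19.6 to 40.1 and 176 to 271.

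Cholesterol synthesis genes lay lower in libraries 9 to 12. HMGCS1, an early enzyme of the pathway, was 68.6 to 89.8 FPKM in libraries 5 to 8 and 11.05 to 16. in 9 to 12. TM7SF2, a sterol reductase, was 134 to 158 and 14.3 to 27.8, and INSIG1, which holds SREBP in the endoplasmic reticulum, 148 to 199 and 34.8 to 46.6. Of 21 pathway genes in the table, listed after these values were seen, 20 were lower in all of libraries 9 to 12 than in any of 5 to 8. Among all 11174 genes at 1 FPKM or more that was so for 21.5%, and 19.5% were higher in 9 to 12 without overlap. Of the 18 division genes at that level, 11 were lower in 9 to 12 without overlap and none higher. The lysosomal and secreted genes CTSD, CLU (245 to 338 against 962 to 1118 FPKM) and APOE (159 to 301 against 804 to 1049) were higher in 9 to 12. In the TGF-β1 arm the same numbers parted PDK4 as well, with 0.149 to 0.372 FPKM in 5 to 8 and 29.1 to 35.9 in 9 to 12, and in the FBS arm it was 0.115 to 0.157 and 0.0148 to 0.224. The sets follow library numbers and not a stated batch, so no test was made between them, and their cause was not tested.

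**Figure D4:**
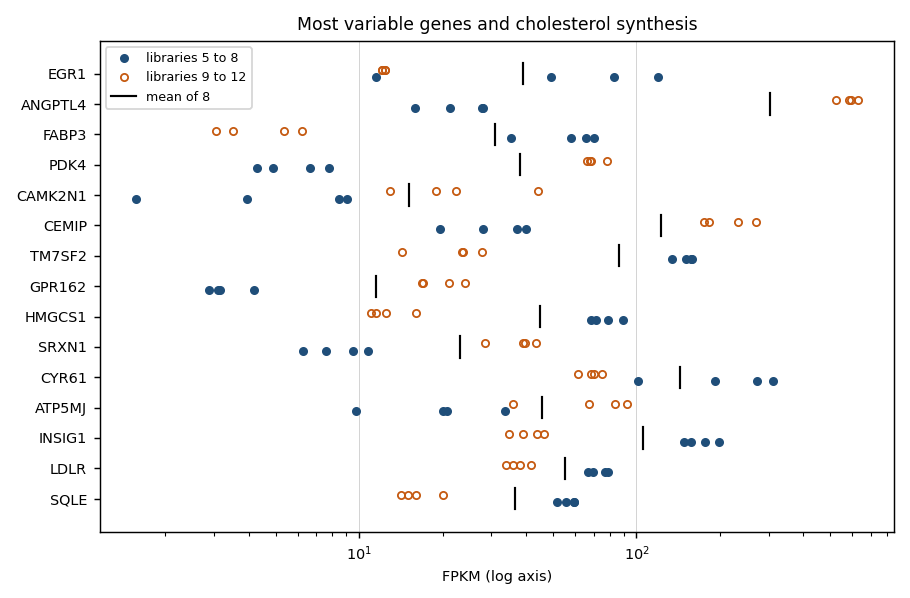
FPKM (log axis) in each serum-free library of the 12 most variable named genes at 10 FPKM or more and of 3 further cholesterol genes. Filled circles are libraries 5 to 8 and open circles libraries 9 to 12. ANGPTL4 and PDK4 lie far higher in 9 to 12, and HMGCS1 and TM7SF2 in 5 to 8.

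The reference arms were set against serum-free medium to see how its abundant genes stood elsewhere. Over 13308 genes tested with edgeR's quasi-likelihood test (Benjamini-Hochberg adjusted p under 0.05), 31.2% were higher and 33.1% lower under TGF-β1 than without it, and 39.5% higher and 40.5% lower under FBS. Both comparisons share the serum-free libraries. Scaling by total library size alone gave 3215 higher and 5368 lower genes with TGF-β1, against 4155 and 4408, and moved the median log2 change of all genes from -0.03 to -0.17 for TGF-β1. For FBS that scaling gave 6219 higher and 4450 lower genes, against 5257 and 5386, and moved the median from -0.04 to 0.21. Of the 10 most abundant serum-free genes 6 were lower with TGF-β1 and all 10 with FBS. Of the 100 most abundant, 36 were lower and 25 higher with TGF-β1, and 51 and 38 with FBS. These genes were chosen for their serum-free level, so nothing is read from these counts.

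The lists were not ranked by level, but they were chosen with earlier results of these data known. Counts for some of them are therefore given beside those shares as a description. Of 36 collagens tested 28 were lower with FBS and 3 higher (median log2 change -2.27, against -0.04 over all genes tested), while with TGF-β1 11 were lower and 19 higher. Of 15 small leucine-rich proteoglycans tested 13 were lower and 1 higher with FBS, and 8 lower and 7 higher with TGF-β1. Of 32 growth factor receptors 17 were lower and 10 higher with TGF-β1, and 21 and 9 with FBS. Of 27 arrest and FOXO genes 18 were lower with FBS (median log2 change -1.08), and 6 higher. With TGF-β1 9 were lower and 11 higher (median -0.04). All 30 division genes were higher with FBS, while with TGF-β1 3 were higher and 11 lower (median -0.78). Of 14 glial and pigment cell markers 9 were lower and 2 higher with TGF-β1, and 10 and 3 with FBS.

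**Figure D5:**
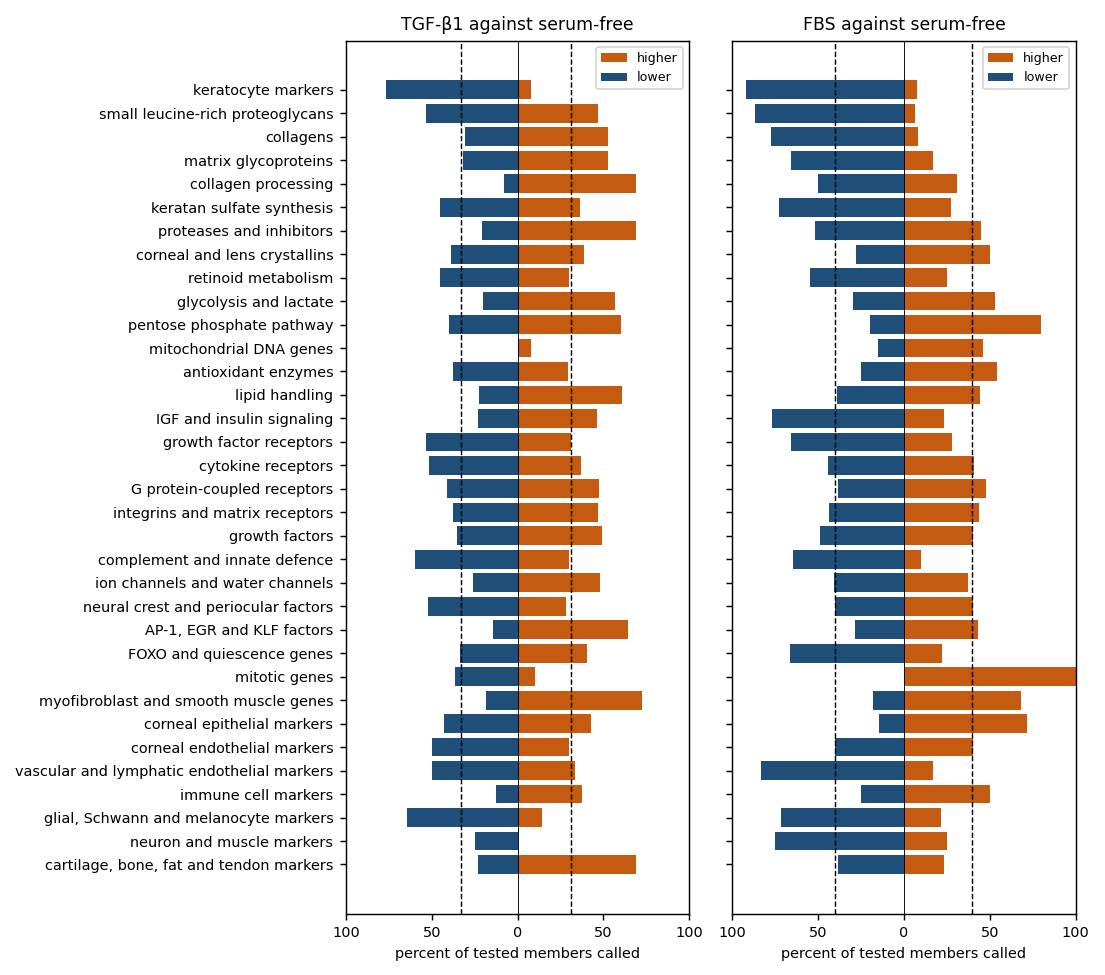
Percent of the tested members of each list called lower (bars to the left) or higher (to the right) than in serum-free medium, with TGF-β1 (left panel) and FBS (right panel). Dashed lines are the shares of all 13308 genes tested. Division genes lie wholly on the higher side with FBS and collagens mostly on the lower.

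Several genes of serum-free libraries were far lower in a reference arm. The genes named here and in the next paragraph were chosen by their level, by their list, by the size of their change or after their values were seen, so their values are a description. SELENBP1, a methanethiol oxidase, went from 86.3 ± 12.2 FPKM to 0.7603 ± 0.301 with TGF-β1 and 0.745 ± 0.389 with FBS (log2 changes -6.81, SE 0.25, and -6.88, SE 0.25, edgeR adjusted p = 4.17e-18 and 6.22e-19). No serum-free library of SELENBP1 overlapped with the others, from 68.8 to 104 (median 89.2) FPKM. APCDD1, a Wnt inhibitor of the cell surface, went from 164 ± 25.9 to 16.9 ± 4.13 and 0.529 ± 0.278 FPKM (-3.27 and -8.29). LOC100328613, the CYP1A1 entry, went from 387 and 606 FPKM in the serum-free sets to 13.5 ± 4.59 and 39.4 ± 2.703 FPKM (-5.21 and -3.66, edgeR adjusted p = 3.67e-17 and 2.51e-15). S1PR1, a sphingosine phosphate receptor, fell from 13.9 ± 1.89 to 0.365 ± 0.121 and 1.04 ± 0.147 FPKM (-5.25 and -3.73). FBP1 had 1 count in all 8 FBS libraries, against 3625 without either agent and 41 under TGF-β1, and FBP2 had 2, 2953 and 950.

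The most abundant secreted products moved less evenly. SAA3 fell from 7539 ± 1504 to 3442 ± 1112 FPKM with TGF-β1 and 416 ± 216 with FBS (-1.14 and -4.18, edgeR adjusted p = 4.49e-04 and 6.65e-13). Serum-free libraries of SAA3 ran from 6072 to 10030 (median 6866) FPKM. THBS4 fell under both agents (log2 changes -1.25 and -5.97), as did MFAP4 (-0.92 and -5.96). COL6A2 was 604 ± 48.5 and 181 ± 55.98 FPKM in those arms (edgeR adjusted p = 2.46e-12 and 8.35e-18), and COL4A3 20.6 ± 5.93 and 3.05 ± 1.11 (-3.19 and -5.95). IGFBP2 parted the arms: it rose with TGF-β1 (1.13) and fell with FBS (-3.65). Among factors EMX2 fell to 17.9 ± 2.05 and 18.5 ± 1.56 FPKM (-2.08 and -2.02), TBX2 to 34.2 ± 7.09 and 28.1 ± 4.26 (-1.78 and -2.05) and NR1D1 to 8.43 ± 1.15 and 2.99 ± 0.327 (-2.65 and -4.15). KDR fell to 15.6 ± 6.09 and 2.88 ± 0.343 FPKM (-2.06 and -4.49), and the growth factor FGF10 to 10.3 ± 1.65 and 8.76 ± 0.6005 (-2.40 and -2.64). Every log2 change printed here and in the preceding paragraph had an adjusted p under 0.05 in edgeR's test over all genes.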

How the data were processed

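RNA was measured in 24 bulk libraries, and the deposited tables hold raw counts per gene and FPKM, per the file headers. For aligner, counter, genome build, annotation and strand setting, nothing is stated by the sources used here. The FPKM that the authors deposited equal counts over gene length and over a library size scaled by a factor that differs between libraries. Tables were joined by gene identifier, and 700 numbered genes took a symbol from RefSeq (mOryCun1.1). Levels are means of deposited FPKM with no filter or pseudocount. Reference conditions were tested on counts with edgeR 4.0.16 (filterByExpr, TMM, quasi-likelihood test, all 24 libraries, Benjamini-Hochberg adjusted p under 0.05) in R 4.3.3, and the standard error is the log2 change over the square root of F. The test was checked on simulated counts. DESeq2 1.42.0 and limma 3.58.1 (log2(FPKM + 1) and log2(FPKM + 0.1)) were alternatives, beside other scaling, no filter, library subsets and each replicate left out.

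Total counts per library set the counting error, and the limit for 0 counts covers that error only. The libraries differed from each other by more than counting error. Named genes are the 40 most abundant with a symbol, leading and near-zero members of 34 lists, 20 factors, the 12 most variable, and the 10 largest falls in each comparison. Some genes are not reported here, and others were added after their values were seen: members from the middle of a list, numbered genes, the gene families and 3 further lists, of which the cholesterol list is used. The members and lists were chosen with earlier results of these data known. The table's column of factor families also holds kinases and receptors. Only its DNA-binding entries, and factors of the neural crest and AP-1 lists, were therefore counted as transcription factors. The numbers 5 to 12 recur in every condition. Deviations of same-numbered libraries from their condition means correlated at 0.103 to 0.429, all over 0.1. Libraries of different number were not compared, so pairing and sets shared by the arms cannot be told apart. No label states a pairing. The main test used none, and a fit with a term for the replicate number (the replicate block) was an alternative.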

Additional observations from a re-analysis of the deposited data

Results flagged for a closer look

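In 242 groups of 8 libraries whose values the report gives, 7 held 1 library far from the other 7. Far means a gap to the nearest beyond Dixon's critical share of the group's range. For 8 equal normal draws about 1 group in 20 would be marked. The serum-free libraries parted into sets and the groups share libraries, so the count is not read against that share. OMD, the osteomodulin gene of the second proteoglycan cluster, was 127 FPKM in serum-free replicate 1, and the next library had 96.7. Serum-free replicate 5 was highest for the lens crystallin CRYBA1 (0.721 FPKM, next 0.339) and for the endothelial transporter SLC4A11 (0.785 FPKM, next 0.461). LPL was 0.799 FPKM in serum-free replicate 3, with 0.483 next. RUNX2, the bone factor, was 14.3 FPKM in serum-free replicate 1, and the next library had 12.3. In the FBS arm, APCDD1 was 1.15 FPKM in replicate 7 (next 0.602) and CD34 6.08 in replicate 4 (next 5.102).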

How the results depend on the processing

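All 4 counts of genes called stayed within 1.5 times their reported value under every alternative run, and all 30 log2 changes of the genes named with a test kept their direction and their call in 750 refitted values. On the log2(FPKM + 1) scale, which understates changes of genes near 0, the lowest was -6.75. With the replicate block the counts were 4626 higher and 4759 lower with TGF-β1 and 5488 and 5616 with FBS, and the block changed no printed call. The number of genes at 1 FPKM or more ran from 10270 (in every library) to 12468 (as TPM), and the share of the top 10 from 19.3% in libraries 9 to 12 to 22.7% in 5 to 8. The median coefficient of variation was 8.79% in libraries 5 to 8 alone and 8.41% in 9 to 12 alone, against 14.5% over all 8, and 13.1% to 15.02% with 1 library left out, which were chosen after seeing the data. Of 212 gene levels, 210 moved by more than 1 SD as TPM, a unit with another total, and 1 as FPKM by total counts. Depth limits a gene with 0 counts only to at most 3 counts over the 8 libraries.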
